A study of Mus musculus with 6 samples.

Results

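The 7 genes described here encode subunits of the GABA-A receptor: Gabra2, Gabra3, Gabra4, Gabra5, Gabrb1, Gabrb2 and Gabrg1. They were taken by symbol from a count table of 24391 gene symbols, which holds 19 GABA-A receptor subunit genes in all. RNA came from hemibrains of mice on postnatal day 0, of which 3 were labelled Celf2 -/- (null) and 3 were labelled Celf2 +/- (heterozygous). CELF2 is an RNA-binding protein, and the series' title names cortical architecture and synapses as its subject. Both groups carry at least 1 disrupted Celf2 allele, so no value here compares with wild type. The labels name no strain, sex, litter or side of the brain, nor how the alleles were made. Libraries are called by group and the number in their label: null replicates 2, 4 and 10, and heterozygous replicates 6, 7 and 11.

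GABA-A receptors are ring-shaped chloride channels opened by GABA, the main inhibitory transmitter of the mature brain. Most rings combine alpha and beta subunits with a gamma subunit, and the kinds chosen set the affinity for GABA, the drug response and the place in the membrane. Around birth many neurons still hold much chloride inside, so that opening these channels can depolarise the cell, and the subunit mix shifts during the following weeks as circuits mature.

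Celf2, the gene the study disrupted, stood at 448, 390 and 331 CPM (read counts scaled to library size) in null replicates 2, 4 and 10, against 459, 403 and 362 CPM in heterozygous replicates 6, 7 and 11. The groups overlapped (log2 fold change -0.07, SE 0.12, edgeR adjusted p = 0.955). A gene total holds no information on which exons were read, so it does not check the genotypes, and the group names rest on the labels alone. Library totals lay between 28831997 and 36531980 counts. Null replicate 2 stood apart in its share of ribosomal RNA precursor (Rn45s), 11.8% of counts, while the rest held 0.194% to 1.27%. It also stood apart over the other genes: with Rn45s left out, the chi-square per gene between libraries was 40.0 to 47.0 for its pairs and 9.83 to 28.1 for all other pairs. The X-inactivation transcript Xist stood at 1346 and 1275 CPM in null replicates 4 and 10 and at 1140 CPM in heterozygous replicate 7, against at most 0.627 CPM in the other libraries. The mix of sexes thus differed between the groups. Immediate-early genes, which respond to neural activity and handling, summed to 296.1, 922.0 and 45.8 CPM in null replicates 2, 4 and 10, against 49.3 to 64.3 CPM in heterozygous libraries. All 7 markers of neurons in general were present, with summed levels of 5506 to 5917 CPM in null and 5353 to 6103 CPM in heterozygous libraries. Markers of the hindbrain and spinal cord summed to between 4.33 and 8.86 CPM in null libraries. In heterozygous replicates 6, 7 and 11 they summed to 25.3, 203.6 and 14.6 CPM, so replicate 7 stood far above the rest. Fold changes were negative for 9 of 9 tested members. Midbrain markers summed to 13.0 CPM in null replicate 2 and to between 44.1 and 56.1 CPM in the other libraries.

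In the RefSeq annotation of the mouse assembly GRCm38.p6, Gabrg1, Gabra2, Gabra4 and Gabrb1 form 1 cluster of 1399 kb on chromosome 5, while Gabra5 lies on chromosome 7, Gabrb2 on chromosome 11 and Gabra3 on the X chromosome. Gabra4 and Gabrb1 lie head to head on opposite strands, and the first 388 bases of their annotated spans overlap. The 150 bases before the first annotated start of each are shown because this pair shares a start region, with CG dinucleotides in capitals. The first lies at chr5:71658309-71658458 on the minus strand and the second at chr5:71657771-71657920 on the plus strand of GRCm38.p6.
Gabra4: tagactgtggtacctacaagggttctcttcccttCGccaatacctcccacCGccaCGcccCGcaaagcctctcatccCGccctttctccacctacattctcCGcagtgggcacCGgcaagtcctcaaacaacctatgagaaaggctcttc
Gabrb1: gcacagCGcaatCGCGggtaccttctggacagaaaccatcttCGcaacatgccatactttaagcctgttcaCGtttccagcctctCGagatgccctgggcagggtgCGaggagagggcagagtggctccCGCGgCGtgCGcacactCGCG
The stretch before Gabra4 holds 7 CG dinucleotides and that before Gabrb1 holds 13. Over the whole 300-base windows (250 bases before to 50 after the start), Gabra2 and the first start of Gabrb1 hold 25, and 18.4% of the 32851 windows in the table hold at least as many. Both windows of Gabra3 hold 0. Gabra4 and Gabrb1 share 46 exonic bases on opposite strands in the GENCODE annotation, and Gabra5 shares 148 with an opposite-strand gene, or 4.98% of its exonic bases. How the authors' counting treated strand is not stated, and reads in these shared bases cannot be assigned. Gabra2, Gabra3, Gabrb2 and Gabrg1 share none.

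CELF proteins bind GU-rich RNA, often in the 3′ untranslated region, and so the heptamer TGTTTGT (DNA letters, given strand only, overlapping matches counted) was searched in the longest annotated 3′ untranslated region of each gene. Of the 7 genes, 2 hold it, Gabrb1 and Gabrb2, against 29.2% of all 14438 tested genes searched. The sites of these 2 genes are shown with the heptamer in capitals and 10 bases on either side.
Gabrb2, chromosome 11, site 1: ttgttgttgtTGTTTGTttgtgttttg
Gabrb2, chromosome 11, site 2: tgttgttgttTGTTTGTgttttgcttt
Gabrb1, chromosome 5, site 1: gaataatctgTGTTTGTgtacacatgc
Gabrb1, chromosome 5, site 2: aagggttttcTGTTTGTtttgacatct
Gabrb1, chromosome 5, site 3: cctgtagaaaTGTTTGTtgtaatgaaa
In Gabrb2 the heptamer occurs 2 times, starting 1978 and 1982 bases after the stop codon, so the matches overlap and the 2 lines show mostly the same bases. Of 2201 tested genes with a region within 20% of that length (2137 bases), 39.6% hold a match. In Gabrb1 the 3 matches start 3236 to 11406 bases after the stop codon, in a region of 12228 bases, and 97.6% of 41 genes with regions of like length hold one. The gene model in the deposited table has a length of 1860 bases for Gabrb1, which is shorter than that region. For Gabra2 the deposited length of 2392 bases is likewise shorter than the 4205 bases searched. For Gabrb2 it is 7552 bases, against 3989 in the longest GENCODE transcript, so bases counted there may lie outside the region searched. The 5 genes without a match have regions of 935 to 4205 bases, and between 19.9% and 63.2% of genes of like length hold one.

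Within the 7, the alpha genes Gabra3 and Gabra5 led. Levels of different genes are given as CPM per kilobase of the gene length in the deposited table. Gabra3, an alpha subunit prominent in the immature cortex and in brainstem monoamine nuclei, had a mean of 33.2 ± 1.34 CPM per kb over the libraries (SD, n = 6). Gabra5, an alpha subunit known from hippocampal receptors outside synapses, had 33.2 ± 2.19 CPM per kb. Gabra3 lay above Gabra5 in 3 of 6 libraries, so their order is not fixed.

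Gabrb2, one of the beta subunits, which carry part of the GABA binding site, came next at 18.1 ± 1.48 CPM per kb, below Gabra5 in 6 of 6 libraries. The other 4 genes stood close together. Gabra2, an alpha subunit of forebrain synapses, had 7.39 ± 1.44 CPM per kb. Gabrb1, another beta subunit, had 6.85 ± 0.969 CPM per kb. Gabrg1, a gamma subunit, had 6.47 ± 1.09 CPM per kb. Gabra4, an alpha subunit of receptors outside synapses in thalamus and dentate gyrus, was lowest at 5.40 ± 0.401 CPM per kb. Neighbours in this order did not separate: Gabra2 lay above Gabrb1 in 3 of 6 libraries, Gabrb1 above Gabrg1 in 4 and Gabrg1 above Gabra4 in 5.

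Together the 7 genes made up 52.9% ± 0.694 of the summed CPM per kb of all 19 subunit genes in null libraries and 52.6% ± 0.178 in heterozygous libraries (SD, n = 3 each). Of the 19, 15 had enough counts to be tested, all 7 listed genes among them. Gabra6, known from cerebellar granule cells, Gabrp, Gabrr2 and Gabrr3 were not tested, with at most 9 counts in any library.

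The order depends on the gene length. The longest protein-coding transcript in the GENCODE M21 annotation is 13737 bases for Gabrb1, 5852 for Gabra2 and 3989 for Gabrb2, against 1860, 2392 and 7552 bases in the deposited table. With those lengths Gabrb2 ranked first at 34.3 CPM per kb, Gabra3 had 33.8 and Gabra5 33.3, while Gabra2 had 3.02 and Gabrb1 0.927 CPM per kb. The deposited lengths are used elsewhere, since the counts came with them. The lengths of Gabra3, Gabra4, Gabra5 and Gabrg1 differed by less than 2% between the sources, and so their order was kept.

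**Figure D1:**
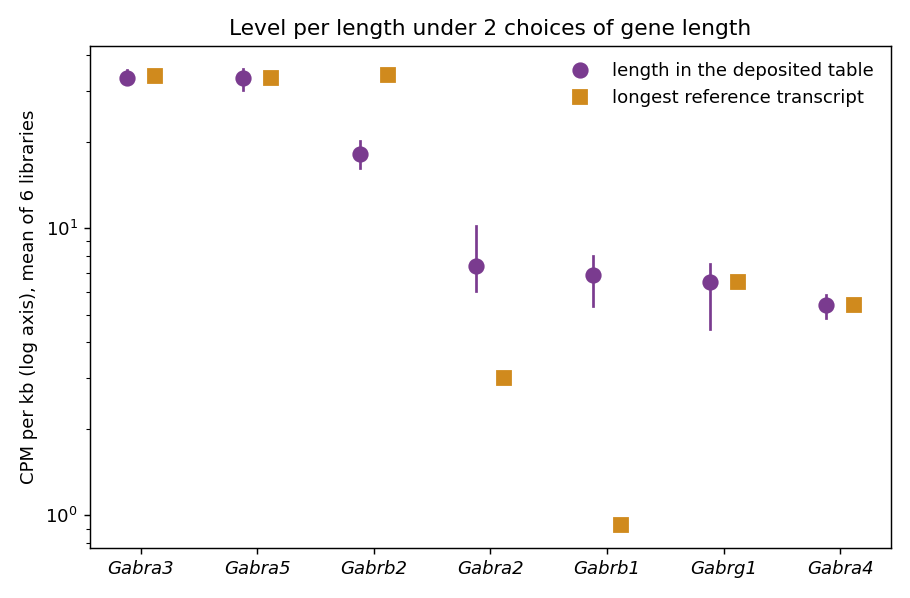
Mean level of the 7 subunit genes over 6 libraries in CPM per kilobase, on a log axis; circles use the gene length in the deposited table, with a line from the lowest to the highest library, and squares use the longest reference transcript. Gabrb2, Gabra2 and Gabrb1 move with the length chosen, and the other 4 genes do not.

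No subunit gene passed the test between genotypes. Of the 7, 0 were called at a Benjamini-Hochberg adjusted p of 0.05 by edgeR's quasi-likelihood test, by the DESeq2 Wald test or by limma-voom, and 0 had an unadjusted edgeR p under 0.05. Over all 15925 genes tested, edgeR called 1 gene, or 0.00628%, and 7.06% had an unadjusted p under 0.05. Fold changes of 5 genes were positive and of 2 negative, with a median log2 fold change of 0.02, against -0.001 over all genes tested. The median size of the log2 fold change, sign left aside, was 0.09 for the 7 genes and 0.10 over all genes tested. In bulk tissue, fewer cells of a type and less RNA per cell cannot be told apart.

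**Figure D2:**
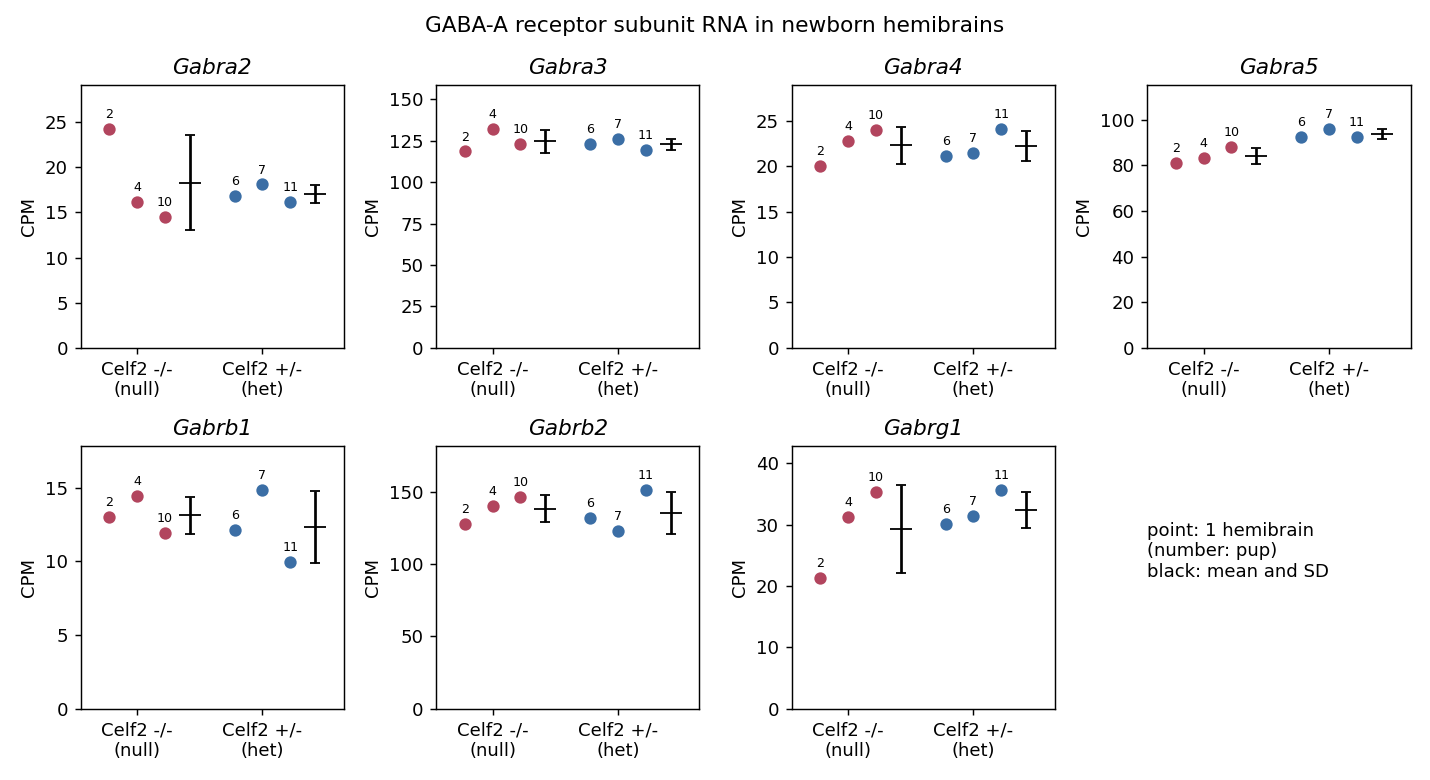
CPM of each subunit gene in each hemibrain, null on the left and heterozygous on the right, with the replicate number above each point and the group mean and SD in black. Gabra5 is the gene whose groups do not overlap, and null replicate 2 stands apart for Gabra2 and Gabrg1.

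Gabra5 was the member with the smallest p. It was at 80.9, 83.3 and 87.9 CPM in null replicates 2, 4 and 10, against 92.3, 96.0 and 92.5 CPM in heterozygous replicates 6, 7 and 11. All 3 null libraries lay below all 3 heterozygous libraries. Groups without overlap were thus found for 1 of the 7 genes, and for 12.7% of all genes tested. The null mean was 84.0 ± 3.58 CPM and the heterozygous mean 93.6 ± 2.07 CPM (SD, n = 3 each), a log2 fold change of -0.16 (SE 0.07, edgeR adjusted p = 0.73, unadjusted p = 0.0616). The null level was thus 89.8% of the heterozygous level, with a 95% interval of 80.1% to 100.6%. The unadjusted p was 0.0355 with upper-quartile factors, 0.0491 with library size alone and 0.0457 without null replicate 10, and the lowest adjusted p over all settings was 0.553. Without null replicate 2 the log2 fold change was -0.13 (unadjusted p = 0.162, edgeR adjusted p = 0.952).

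Some lists of cell type and region markers had sums that did not overlap between the groups, and were picked for description here for that reason. Sums of GABAergic neuron, thalamus, oligodendrocyte lineage, microglia, vessel and choroid plexus markers overlapped. Over all genes tested, 49.7% of fold changes were positive. Astrocyte markers summed to 1238 to 1550 CPM in null and 1601 to 1745 CPM in heterozygous libraries, with negative fold changes for 9 of 9 and none at 0. Telencephalon markers summed to 507.9 to 690.6 CPM in null and 389.6 to 472.5 CPM in heterozygous libraries, with positive fold changes for 5 of 5 and none at 0. Cortical excitatory neuron markers summed to 1003 to 1096 CPM in null and 797.0 to 844.2 CPM in heterozygous libraries, with positive fold changes for 6 of 7 and none at 0. Striatum markers summed to 280.0 to 323.1 CPM in null and 326.5 to 352.9 CPM in heterozygous libraries, with negative fold changes for 8 of 8 and none at 0. None of these genes passed the test. An unadjusted edgeR p under 0.05 was found for 4 of 9 astrocyte and 2 of 5 telencephalon markers. The same held for 5 of 7 cortical excitatory neuron and 2 of 8 striatum markers, and for 7.06% of all genes tested. Groups did not overlap for 3, 1, 5 and 3 of them in that order, and for 12.7% of all genes tested. Neurod6 had the smallest p (log2 fold change 0.53, edgeR adjusted p = 0.062). The part of these markers in the Gabra5 values was not tested.

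Gabra3 had the narrowest spread of the 7 over the libraries, an SD of log2 CPM of 0.0574. It was at 118.6, 132.3 and 123.1 CPM in null replicates 2, 4 and 10, against 123.0, 126.3 and 119.6 CPM in heterozygous replicates 6, 7 and 11. The groups overlapped, and both the highest and the lowest library were null. The log2 fold change was 0.02 (SE 0.07, edgeR adjusted p = 0.982), and the 95% interval put the null level at 90.9% to 113% of the heterozygous level. Gabra3 lies on the X chromosome, and the 3 libraries with high Xist, null replicates 4 and 10 and heterozygous replicate 7, were its 3 highest. The lowest of these, null replicate 10 at 123.1 CPM, was almost level with heterozygous replicate 6 at 123.0 CPM. With Y-linked expression as a covariate the log2 fold change of Gabra3 was -0.0090. The part of sex in the Gabra3 values was not tested.

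The ratio of the 2 leading alpha genes separated the groups. It reuses the Gabra5 counts described above, whose groups did not overlap, and so is not a separate result. Gabra5 over Gabra3, per kilobase, was 0.951, 0.877 and 0.996 in null replicates 2, 4 and 10, against 1.05, 1.06 and 1.08 in heterozygous replicates 6, 7 and 11. Gabra3 was thus the higher of the pair in every null library and Gabra5 in every heterozygous library, though by small margins. The means were 0.941 ± 0.0597 in null and 1.06 ± 0.0163 in heterozygous libraries (SD, n = 3 each). Of 4 ratios between subunit genes, this one was chosen for description after its values were seen, and its exact two-sided permutation p of 0.1 (n = 3 each) is the smallest that 3 against 3 allow. The exact permutation p of the other ratios lay between 0.7 and 0.9. Which gene is the higher rests on the lengths, while the difference between the groups does not.

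Exact permutation was run on 15 shares, of which 13 lie within the 7 genes and the rest set the 7 against the whole family. The share of Gabra5, among the alpha genes and among the 7, did not overlap between the groups, and the other shares within the 7 did. Both Gabra5 shares restate the lower Gabra5 counts of the null libraries and add no separate result. Among the alpha genes, Gabra5 made up 39.2%, 39.5% and 42.3% of the summed CPM per kb in null replicates 2, 4 and 10, against 43.3%, 43.5% and 43.6% in heterozygous replicates 6, 7 and 11. The means were 40.3% ± 1.69 in null and 43.5% ± 0.159 in heterozygous libraries (exact two-sided permutation p = 0.1, n = 3 each), the smallest p that 3 against 3 allow. Gabra3 made up 42.9% ± 1.88 in null and 41.0% ± 0.479 in heterozygous libraries (exact permutation p = 0.2, n = 3 each). Gabra2 made up 9.84% ± 2.91 in null and 8.84% ± 0.327 in heterozygous libraries (exact permutation p = 0.9, n = 3 each), and Gabra4 6.94% ± 0.591 in null and 6.70% ± 0.587 in heterozygous libraries (exact permutation p = 0.7, n = 3 each). These shares sum to the whole, so a lower share of one gene raises the others. They also rest on the gene lengths. With the longest reference transcripts Gabra2 made up 4.25% in null and 3.78% in heterozygous libraries, and Gabra5 42.5% and 45.5%.

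**Figure D3:**
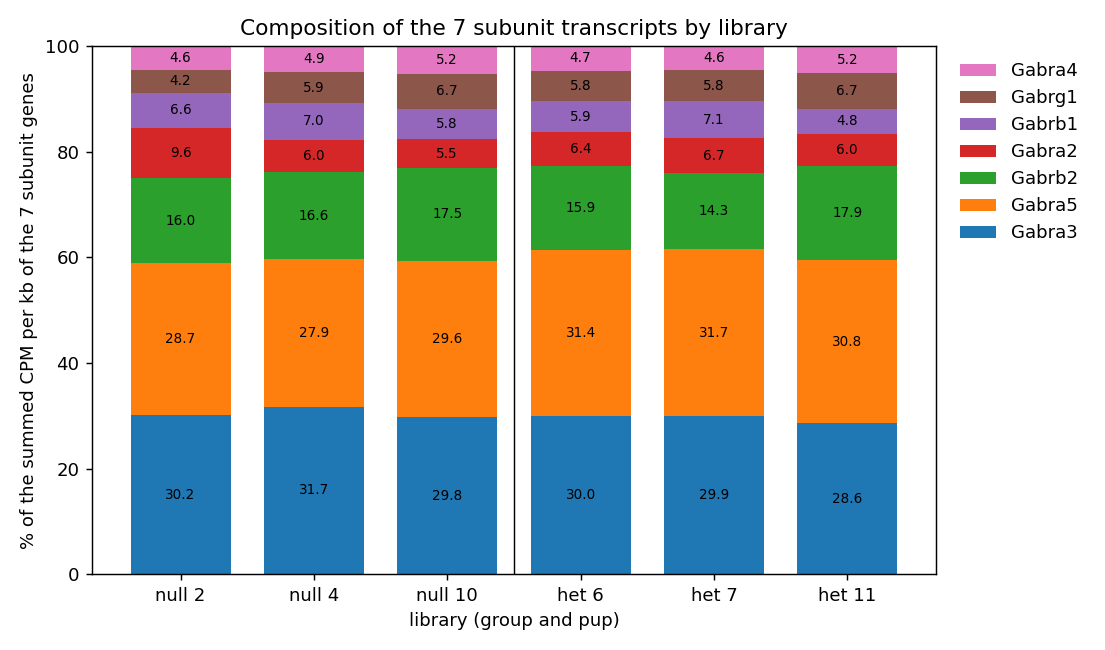
Share of each subunit gene in the summed CPM per kilobase of the 7 genes, in percent, for each library, null on the left and heterozygous on the right. Gabra5 takes 27.9% to 29.6% in null and 30.8% to 31.7% in heterozygous libraries, and Gabra2 takes its largest share, 9.62%, in null replicate 2.

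Gabra2 and Gabrg1, neighbours in the chromosome 5 cluster, were set apart by 1 library. Gabra2 was at 24.3, 16.2 and 14.5 CPM in null replicates 2, 4 and 10, against 16.8, 18.1 and 16.2 CPM in heterozygous replicates 6, 7 and 11. Gabrg1 was at 21.3, 31.3 and 35.3 CPM in null replicates 2, 4 and 10, against 30.2, 31.4 and 35.7 CPM in heterozygous replicates 6, 7 and 11. Null replicate 2 was thus the highest library for Gabra2 and the lowest for Gabrg1, and the other 5 libraries of each gene lay closer together.

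The log2 fold change of Gabra2 was 0.10 (SE 0.18, edgeR adjusted p = 0.955) and that of Gabrg1 was -0.15 (SE 0.17, adjusted p = 0.925). Without null replicate 2 both changed sign, to -0.15 for Gabra2 and 0.04 for Gabrg1, and without null replicate 10 they were 0.24 and -0.30. In null replicate 2 the mean of midbrain markers lay 1.84 below its average on the log2 scale and that of telencephalon markers 0.41 above. The mean of the genes of the glycine receptor and its transporters lay 0.96 below. Among these the transporter gene Slc6a5 had 6 counts (0.236 CPM) there, against 1.87 to 16.0 CPM in the other libraries. Glra2, a receptor subunit gene, went the other way and was highest there, at 103 CPM against 88.8 to 96.9 CPM. The part of these lists in the Gabra2 and Gabrg1 values was not tested.

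**Figure D4:**
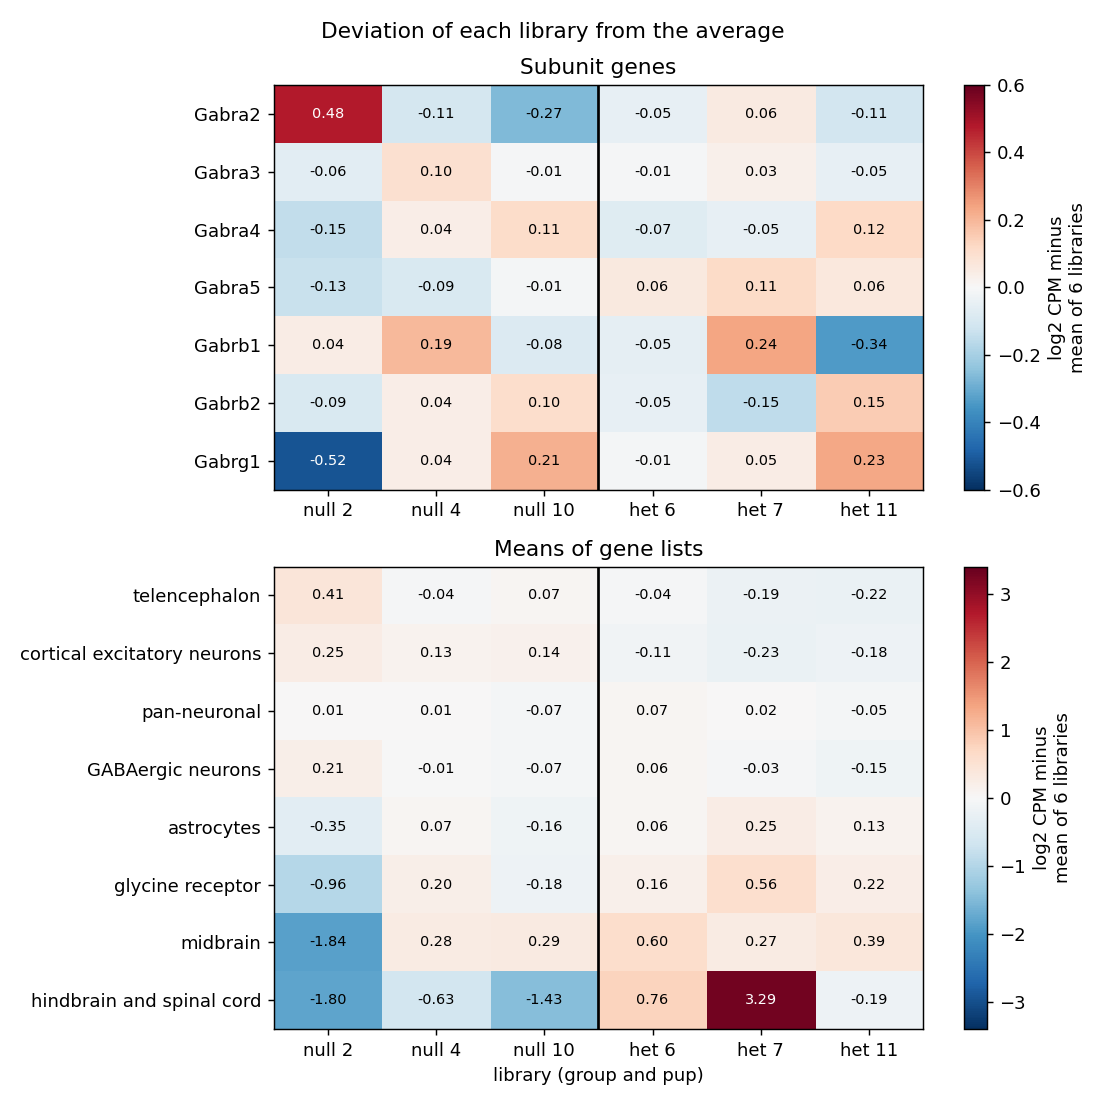
Log2 CPM of each library minus the mean of the 6 libraries, for the 7 subunit genes (upper panel) and for the means of 8 gene lists (lower panel, wider colour scale), null on the left and heterozygous on the right. Null replicate 2 lies at 0.48 for Gabra2 and -0.52 for Gabrg1, and at -1.84 for the midbrain list.

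The beta genes did not separate the genotypes. Gabrb2 was at 127.8, 140.1 and 146.5 CPM in null replicates 2, 4 and 10, against 131.8, 122.7 and 151.4 CPM in heterozygous replicates 6, 7 and 11. Gabrb1 was at 13.0, 14.5 and 11.9 CPM in null replicates 2, 4 and 10, against 12.2, 14.9 and 9.97 CPM in heterozygous replicates 6, 7 and 11. For both genes the widest spread lay within the heterozygous group, where replicate 7 was low for Gabrb2 and high for Gabrb1, and replicate 11 the reverse.

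The log2 fold change was 0.03 for Gabrb2 (SE 0.09, edgeR adjusted p = 0.974) and 0.09 for Gabrb1 (SE 0.16, adjusted p = 0.955). Gabrb2 made up 72.1% ± 2.62 of the CPM per kb of this pair in null and 72.9% ± 5.95 in heterozygous libraries (exact permutation p = 0.9, n = 3 each). This share rests on the gene lengths. With the longest reference transcripts as lengths it was 97.3% in null and 97.4% in heterozygous libraries. The fold change of Gabrb1 was 0.25 without heterozygous replicate 7 and -0.04 without heterozygous replicate 11. For Gabrb2 the 95% interval put the null level at 89.0% to 117% of the heterozygous level, and for Gabrb1 at 83.2% to 137%.

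Gabra4 was at 20.1, 22.8 and 24.0 CPM in null replicates 2, 4 and 10, against 21.1, 21.5 and 24.1 CPM in heterozygous replicates 6, 7 and 11. The groups overlapped throughout, with means of 22.3 ± 2.03 CPM in null and 22.2 ± 1.64 CPM in heterozygous libraries (SD, n = 3 each), and the log2 fold change was 0.004 (SE 0.12, edgeR adjusted p = 0.997). The interval put the null level at 84.0% to 120% of the heterozygous level. The 4 genes of the chromosome 5 cluster together made up 24.0% ± 0.989 of the CPM per kb of the 7 genes in null and 23.2% ± 0.818 in heterozygous libraries (exact permutation p = 0.3, n = 3 each). With the longest reference transcripts as lengths the cluster share was 13.5% in null and 13.5% in heterozygous libraries.

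The 7 genes did not vary together across libraries. As a description over 6 libraries, which share their depth and tissue makeup, Pearson's r of log2 CPM was 0.88 between Gabra4 and Gabrb2 and 0.88 between Gabra4 and Gabrg1, and 0.91 and 0.92 without null replicate 2. It was -0.95 between Gabra2 and Gabrg1, and -0.65 without that library. Gabra4 and Gabrb1, which share a start region, had an r of -0.49. Profiles were compared with 13143 other genes with a mean of at least 50 counts, symbols of predicted genes (Gm, Rik) left out. The closest to Gabra2 was Akap8l (r = 0.972, and 0.823 without null replicate 2). Without the 2 libraries furthest from the Gabra2 median this r was 0.434. For Gabra3 the closest were Rabgap1l (0.995) and Zdhhc20 (0.993), for Gabra4 Dnmt3b and Ireb2 (0.991 each), and for Gabra5 Arpc5 (0.995). For Gabrb1 they were Foxd3 (0.988) and Grm7 (0.987), for Gabrb2 Taok3 (0.992) and Npas2 (0.991), and for Gabrg1 Irx2 (0.997, and 0.978 without null replicate 2) and Vmp1 (0.993). Each is the best match of many over few libraries.

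Genes around the receptor also gave no call, by edgeR, DESeq2 or limma-voom. Of the 10 genes of GABA synthesis, transport and breakdown, 0 were called, with 2 positive and 8 negative fold changes, 2 genes at an unadjusted edgeR p under 0.05 and a median log2 fold change of -0.09. Gad1 and Gad2 encode the enzymes that make GABA. Gad1 averaged 199 ± 19.1 CPM in null and 195 ± 9.02 CPM in heterozygous libraries (log2 fold change 0.03), and Gad2 averaged 107 ± 5.82 CPM in null and 116 ± 6.60 CPM in heterozygous libraries (-0.11; SD, n = 3 each). Slc6a11, a GABA transporter of astrocytes, was at 159, 235 and 207 CPM in null replicates 2, 4 and 10, against 273, 288 and 228 CPM in heterozygous replicates 6, 7 and 11 (log2 fold change -0.39, SE 0.14, edgeR adjusted p = 0.639). Null replicate 4 lay above heterozygous replicate 11. Astrocyte markers, whose sums are given above, were lower in null libraries too, and their part in the Slc6a11 values was not tested.

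Of 25 genes of the inhibitory postsynapse and of receptor trafficking, 0 were called, with 15 positive and 10 negative fold changes, 1 gene at an unadjusted p under 0.05 and a median of 0.06. Gphn, which encodes the scaffold gephyrin, averaged 86.7 ± 3.98 CPM in null and 80.8 ± 4.29 CPM in heterozygous libraries (SD, n = 3 each; log2 fold change 0.10). The members with the smallest p were the scaffold gene Magi2 (0.30, edgeR adjusted p = 0.632), Nsf, an ATPase of membrane fusion (0.18, adjusted p = 0.717), and Rdx, which encodes radixin, an anchor of receptors that hold Gabra5 (0.12, adjusted p = 0.765). Rdx was at 153, 146 and 155 CPM in null replicates 2, 4 and 10, against 136, 141 and 140 CPM in heterozygous replicates 6, 7 and 11, so that the groups did not overlap. The same held for 3 of the 25 genes, Rdx and Nsf among them, and for 12.7% of all genes tested.

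Of 6 genes of the GABA-B receptor and its KCTD partners, 0 were called and 1 had an unadjusted p under 0.05, with 4 positive and 2 negative fold changes and a median of 0.07. Kctd12, an auxiliary subunit of that receptor, was at 235, 267 and 258 CPM in null replicates 2, 4 and 10, against 194, 225 and 209 CPM in heterozygous replicates 6, 7 and 11. All null libraries lay above the heterozygous ones, and the log2 fold change was 0.28 (SE 0.08, edgeR adjusted p = 0.496). Groups without overlap were found for 2 of these 6 genes, and for 12.7% of all genes tested. Kctd8, of the same family, was at -0.17 (adjusted p = 0.835).

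Of 6 tested genes of the glycine receptor and its transporters, 0 were called and 2 had an unadjusted p under 0.05, with 2 positive and 4 negative fold changes and a median of -0.24. Glrb, the beta subunit of the glycine receptor, averaged 48.1 ± 5.30 CPM in null and 57.4 ± 4.47 CPM in heterozygous libraries (SD, n = 3 each; log2 fold change -0.25, edgeR adjusted p = 0.662). Slc6a9, a glycine transporter, had a log2 fold change of -0.23 (adjusted p = 0.659). Hindbrain and spinal cord markers, none of which passed the test, also had lower sums in null libraries, and their part in these values was not tested.

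Of 9 genes of chloride transport and its kinases, 0 were called, with 6 positive and 3 negative fold changes, 2 genes at an unadjusted p under 0.05 and a median of 0.12. Slc12a2, the chloride importer NKCC1, averaged 71.1 ± 5.89 CPM in null and 68.8 ± 5.94 CPM in heterozygous libraries, and Slc12a5, the exporter KCC2, averaged 292 ± 27.5 CPM in null and 311 ± 6.16 CPM in heterozygous libraries (SD, n = 3 each). Their log2 fold changes were 0.05 and -0.09. Wnk2, a kinase gene, was at 0.22 (edgeR adjusted p = 0.639) and Slc12a7, another exporter gene, at 0.34 (adjusted p = 0.659). Among the 8 tested genes of the other 12 receptor subunits, 0 were called, with 2 positive and 6 negative fold changes, 0 at an unadjusted p under 0.05 and a median of -0.08. Gabre, an epsilon subunit gene, averaged 1.53 ± 0.212 CPM in null and 1.24 ± 0.114 CPM in heterozygous libraries (0.30, adjusted p = 0.874).

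**Figure D5:**
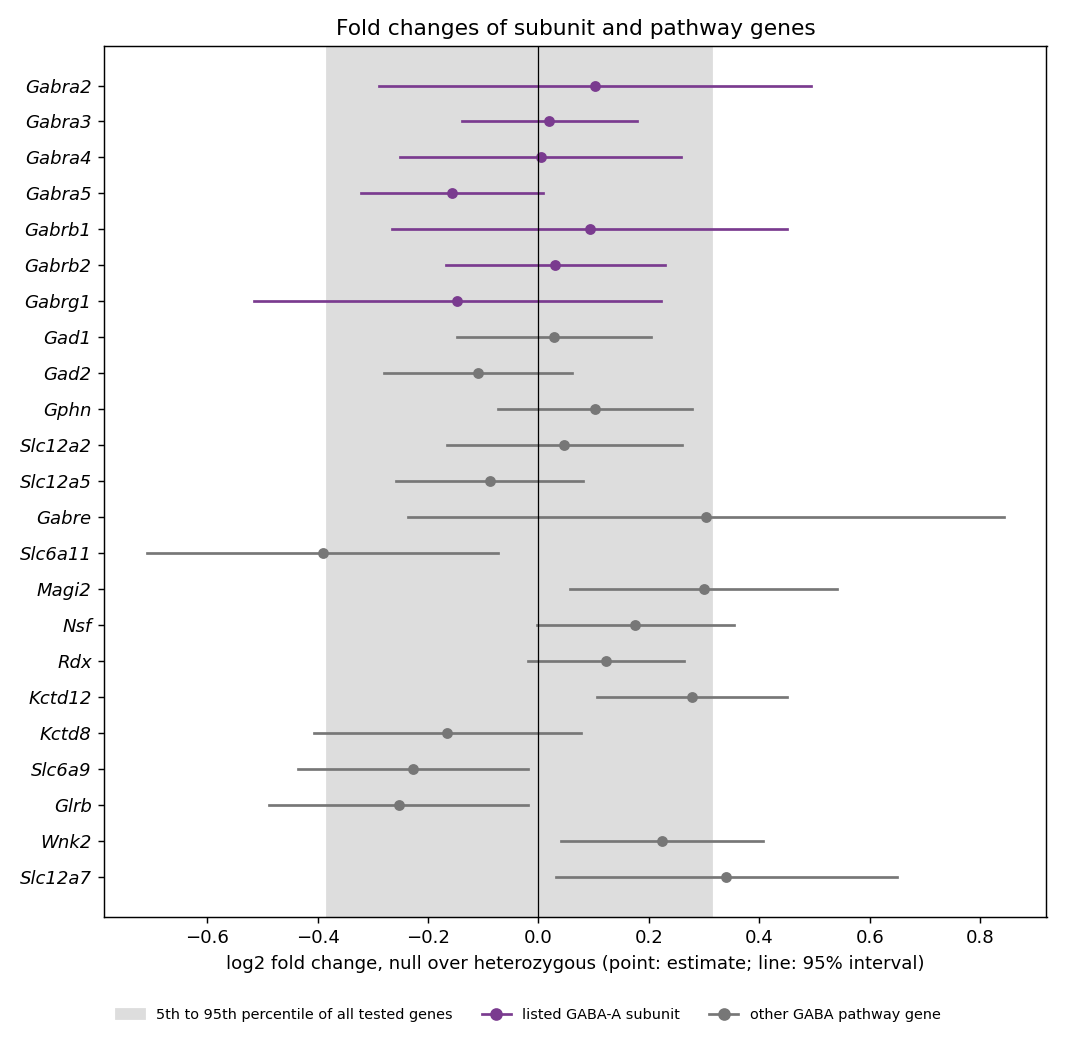
Log2 fold change, null over heterozygous, of the 7 subunit genes (purple) and of pathway genes named in the text (grey), with 95% intervals from the edgeR fit; the band spans the 5th to the 95th percentile of all tested genes, -0.38 to 0.31. The 7 subunit estimates lie between -0.16 and 0.10, and each of their intervals includes 0.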

How the data were processed

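Raw read counts per gene symbol, with a length in bases for each gene, were deposited by the authors as whole numbers for 6 hemibrain libraries. TRIzol extraction and a strand-specific kit for small amounts of total RNA are given per the labels' protocols, but poly(A) RNA is named in the design text and the molecule field. Per the submitters' processing notes the tools included CASAVA, cutadapt and STAR and the builds mm9 and hg19. For the counting step, tool, annotation and strand were not given in the sources used here.

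Genes were kept by filterByExpr of edgeR 4.0.16 (R 4.3.3), which left 15925, and tested with its quasi-likelihood test (TMM factors, robust dispersion, adjusted p threshold 0.05). Each standard error is the size of the log2 fold change over the root of F. CPM uses TMM-scaled library sizes. Shares and single values were compared by exact permutation over all 20 splits of 3 against 3. Alternatives were other size factors and filters, DESeq2 1.42.0, limma-voom (limma 3.58.1), a Y-linked covariate, Rn45s removed, other gene lengths and leaving out each library. Likeness is Pearson's r of log2 CPM (prior count 2).

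The members and lists were chosen with earlier results of these data known. Named are the members, the main genes of each role, up to 3 genes of each list with the smallest p, and the closest profiles of each member, while marker lists are given by their sums. Some genes named by this rule are not reported here. Insyn1, of the postsynapse list, was not matched. Every pair of libraries differed by more than sampling noise (smallest chi-square per gene 12.8, over all rows). Since nothing says that samples came from separate litters, p-values measure only the spread between these samples. Promoters come from RefSeq (GRCm38.p6), where all 7 genes matched, and 3′ untranslated regions from GENCODE M21, with 90.7% of tested genes searched. In counts simulated for this comparison of null with heterozygous libraries (15811 genes), 58 of 100 genes changed 1.5-fold and 89 of 100 changed 2-fold were called, with 13 false calls. The changed genes all had a mean of at least 50 counts. Far more genes were changed there than the 1 called in the data, which makes the adjusted threshold easier to pass. These rates therefore do not give the chance of a call in the data.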

Additional observations from a re-analysis of the deposited data

How the results depend on the processing

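No paired analysis was possible because the groups share no replicate number. In every setting run, 0 of the 7 subunit genes and 0 of the other GABA pathway genes were called. The count over all genes, 1 in the edgeR fit, was 0 with DESeq2 size factors, a CPM minimum, limma-voom, no robust dispersion or Rn45s removed, 2 with upper-quartile factors or library size alone, 3 with no low-count filter, 11 with the Y-linked covariate and 64 with DESeq2, and 0 to 4 without single libraries (4 without null replicate 10). Gabra5 stayed negative in all settings (-0.24 to -0.13). Celf2 lay between -0.18 and 0.0391 without single libraries, and turned positive without null replicate 10 or heterozygous replicate 6. Signs turned for values near 0: with upper-quartile factors Gabra3 (-0.000364) and Gabra4 (-0.0163); with library size alone, which moves the median of all genes to -0.086, Gabra2 (-0.00279), Gabra3 (-0.0621), Gabra4 (-0.0759), Gabrb2 (-0.0512), Gad1 (-0.0545) and Slc12a2 (-0.0337); and with the Y-linked covariate Gabra3 (-0.00896), Gabra4 (-0.0235) and Slc12a2 (-0.0144). The cause was not tested.

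Without single libraries the log2 fold change lay between -0.15 and 0.24 for Gabra2, -0.0253 and 0.0561 for Gabra3, -0.052 and 0.0752 for Gabra4, -0.0402 and 0.25 for Gabrb1, -0.0353 and 0.12 for Gabrb2, -0.30 and 0.0378 for Gabrg1, -0.0523 and 0.0806 for Gad1 and -0.0194 and 0.11 for Slc12a2. The difference in share of the alpha genes, null minus heterozygous, lay between -0.663 and 2.03 percentage points for Gabra2 and between -0.0443 and 0.568 for Gabra4, and that of Gabrb2 among the beta genes between -3.7 and 2.25. For Gabra5 it lay between -4.13 and -2.62. In shares of all 7 genes it lay between -0.613 and 1.47 for Gabra2, -0.0409 and 0.311 for Gabra4, -0.0442 and 1.09 for Gabrb1, -0.16 and 1.61 for Gabrb2, -1.03 and 0.185 for Gabrg1. With the longest reference transcript as length the cluster share differed by -0.00256 points, against 0.827 with the deposited length. With 3 hemibrains a group, the median standard error over all genes tested was 0.13 on the log2 scale. The largest subunit difference, Gabra5 at -0.16, had a standard error of 0.07, and its 95% interval included 0.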
